A study of Homo sapiens with 4 samples.

Results

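The RNA of 47 microtubule genes was followed in A549 cells, a human lung adenocarcinoma line, after treatment with GMI, a fungal immunomodulatory protein made by Ganoderma microsporum. The genes were chosen by symbol from the 57905 genes in the files and comprise 11 alpha and beta tubulins, 6 genes of the gamma-tubulin complex, 7 genes grouped with the tubulin folding cofactors, 16 microtubule-binding proteins and enzymes, and 7 motor genes. The 47 symbols matched 48 rows, because TUBB3 is carried by a pair of identifiers. The list was drawn up with the levels and differences of these same libraries in view. Levels and differences below therefore describe the genes listed, and an adjusted p, always taken from a fit across all tested genes, says only whether the difference of that gene exceeded the spread between libraries.

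The groups were A549 cells exposed to 0.6 µM GMI for 24 h, with 2 libraries, and A549 cells labelled as controls of the same 24 h, with 2 libraries. The labels give no vehicle for the controls, and all 4 libraries come from the same line grown with fetal bovine serum. Whether the 2 libraries of a group come from independent cultures is not labelled, and the p-values below therefore reflect only the spread among these samples, which could be technical. Expression is given in FPKM, which divides the fragments of a gene by its length and by the size of the library. This puts genes and libraries on a common scale. Comparisons between genes are less certain where sequence is shared or overlaps, because fragments there can be lost or shifted.

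Microtubules are hollow polymers of alpha and beta tubulin dimers, and they serve as tracks for transport and as the fibres of the mitotic spindle. New tubulin is folded with the help of dedicated cofactors, filaments are seeded by a ring complex that contains gamma tubulin, and binding proteins, enzymes and motors act on the finished polymer. Cells also adjust the RNA of alpha and beta tubulin to their supply of unpolymerised dimer: in human cells TTC5 binds the opening residues of tubulin as it leaves the ribosome and leads to the decay of the RNA being translated. In epithelial cells such as A549 the microtubule network carries vesicles and positions organelles between divisions.

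After GMI, 8 of the 11 alpha and beta tubulin genes fell, among them the most abundant beta tubulin, TUBB, and both genes with the lowest fold changes, TUBA4A and TUBB4B. TUBA1A, a close relative of TUBA1B and TUBA1C, rose. TUBG1, the main gamma tubulin gene, fell by about as much as the dimer subunits, whereas most genes for cofactors, binding proteins and motors were not called. In all, 2 members were higher (TUBA1A and ARL2) and 11 were lower at a limma adjusted p under 0.05, and 33 tested members were not called. Over all 11598 genes tested, 9.3% were called higher and 6.12% lower. The median log2 fold change was -0.13 over the 46 member rows tested and -0.01 over all genes tested. Log2 fold changes are differences of mean log2(FPKM + 1), GMI minus control, and this scale makes the changes of genes with low FPKM look smaller than they were. In bulk RNA, fewer cells that express a gene and less RNA per cell cannot be told apart.

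The test took genes with at least 1 FPKM in at least 2 of the 4 libraries. All 46 member rows above this filter reached 1 FPKM in all 4 libraries, so none was tested only because it was high in 1 group. The remaining 2 rows were below it. TUBB2B, a beta tubulin best known from the developing brain, had 0.35 and 0.41 FPKM in GMI cells and 0.80 and 0.42 FPKM in controls. The second TUBB3 row (ENSG00000198211) was listed at 0 in all 4 libraries.

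The coding starts of the tubulin genes are shown because TTC5 reads what they encode. Capitals mark the opening 4 codons where they have the tubulin form, which is ATG followed by an arginine codon, a glutamate codon and then a codon for isoleucine or cysteine. Each run is the beginning of the coding sequence of the principal transcript in GENCODE 29, 5′ to 3′.
TUBA1A: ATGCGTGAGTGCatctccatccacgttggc
TUBA1B: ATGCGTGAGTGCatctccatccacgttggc
TUBA1C: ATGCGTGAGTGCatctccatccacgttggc
TUBA4A: ATGCGTGAATGCatctcagtccacgtgggg
TUBB: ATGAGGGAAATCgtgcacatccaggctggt
TUBB2A: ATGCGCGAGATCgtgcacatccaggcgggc
TUBB3: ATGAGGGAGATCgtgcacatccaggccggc
TUBB4A: ATGCGGGAGATCgtgcacctgcaggccggc
TUBB4B: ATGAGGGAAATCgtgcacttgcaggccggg
TUBB6: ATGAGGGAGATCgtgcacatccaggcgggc
TUBG1: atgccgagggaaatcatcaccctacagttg
This form of coding start was held by 11 of the 11 alpha and beta tubulin members. The form is defined by tubulin itself, so that count was fixed in advance. It was held by 19 of 19553 coding genes with a principal transcript in GENCODE 29, or 0.0972%. All 19 have alpha or beta tubulin symbols, so the share describes the family and not the change after GMI. In TUBG1 arginine, glutamate and isoleucine codons come in the same order, but after an additional proline codon, so the form is not met. The 10 genes with this start that were tested here were the 10 tested alpha and beta tubulin members. The 30 bases shown are identical in TUBA1A, TUBA1B and TUBA1C, of which the first gene rose and the other two fell. TTC5 itself had 1.69 and 1.74 FPKM in GMI cells, against 1.74 and 1.86 FPKM in controls. That difference was within the spread (log2 fold change -0.04, SE 0.09, adjusted p = 0.791). CNOT11 is a subunit of the CCR4-NOT deadenylase that takes part in tubulin RNA decay in human cells. It had 12.5 and 15.2 FPKM in GMI cells, against 14.9 and 13.5 FPKM in controls, and the groups overlapped (limma adjusted p = 0.832). RNA levels do not show the activity of TTC5 or CNOT11. The part of tubulin RNA decay in these differences was not tested.

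TUBA4A (ENSG00000127824), an alpha tubulin whose gene does not encode the C-terminal tyrosine, fell furthest. It had 99.1 and 97.1 FPKM in GMI cells, against 247 and 241 FPKM in controls. The 2 groups lay far apart, and the GMI mean was 40.2% of the control mean. The log2 fold change was -1.31 (SE 0.05, limma adjusted p = 0.000304), and 0.138% of all tested genes had a lower one. By FPKM, TUBA4A was the most abundant alpha tubulin RNA in the controls, but not in GMI cells. This order depends on how fragments of shared sequence were assigned. Of the 75-base windows of the principal transcript, 48.4% in TUBA1B and 3.02% in TUBA4A occurred in other genes.

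TUBA1B, a ubiquitous alpha tubulin, had 95.7 and 88.0 FPKM in GMI cells, against 157 and 169 FPKM in controls (log2 fold change -0.82, SE 0.07, adjusted p = 0.00131). Its relative TUBA1C had 104 and 107 FPKM in GMI cells, against 170 and 165 FPKM in controls (log2 fold change -0.66, SE 0.05, adjusted p = 0.00131). Both fell, and in each gene both GMI libraries were below both controls. TUBA1A, the alpha tubulin most often linked to neuronal development, went the other way with 124 and 130 FPKM in GMI cells, against 98.4 and 106 FPKM in controls. Its groups did not overlap, but the gap was narrow: the log2 fold change was 0.31 (SE 0.06, adjusted p = 0.0226).

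The 3 TUBA1 genes share sequence, so their separate values depend on how fragments were assigned. Of all 75-base windows of the principal transcript, 27.5% in TUBA1A, 42.2% in TUBA1B and 17% in TUBA1C also occurred in another member tubulin. In addition, TUBA1A and TUBA1C lie on opposite strands and overlap in their annotated exons, which covers 14.3% of the exon bases of TUBA1A. Whether the counting used strand is not given in the sources used here, so the part of shared fragments in the rise of TUBA1A was not tested. Summed over the 3 genes, there were 324 and 325 FPKM in GMI cells, against 425 and 440 FPKM in controls. The sum in GMI cells was 75% of that in controls. The sum does not remove the uncertainty, because FPKM divides by each gene's own length and fragments lost as shared are not restored.

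TUBB, the common beta tubulin (ENSG00000196230), had 203 and 182 FPKM in GMI cells, against 358 and 368 FPKM in controls. It fell to 53% of the control mean (log2 fold change -0.91, SE 0.07, adjusted p = 0.00104) and was still the most abundant tubulin RNA in both groups. TUBB4B, a beta tubulin also found in cilia, had 101 and 95.9 FPKM in GMI cells, against 237 and 229 FPKM in controls. Its log2 fold change of -1.24 (SE 0.06, adjusted p = 0.000304) was the lowest of a beta tubulin, and 0.164% of all tested genes had a lower one.

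The less abundant beta tubulins were lower as well, though the rarest tested, TUBB4A, did not pass the threshold. TUBB6 had 23.0 and 25.5 FPKM in GMI cells, against 35.2 and 33.5 FPKM in controls, a smaller fall (log2 fold change -0.49, SE 0.07, adjusted p = 0.00768). TUBB2A had 7.34 and 6.99 FPKM in GMI cells, against 15.2 and 14.2 FPKM in controls (log2 fold change -0.94, SE 0.07, adjusted p = 0.00108). The libraries of each group lay close together for both genes, and the groups did not overlap.

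TUBB3, the neuronal beta tubulin often measured in carcinomas, had 6.49 and 6.09 FPKM in GMI cells, against 12.3 and 11.99 FPKM in controls (log2 fold change -0.85, SE 0.07, adjusted p = 0.00131). TUBB4A had 2.10 and 2.03 FPKM in GMI cells, against 2.53 and 2.78 FPKM in controls. Its groups did not overlap either, but the difference did not pass (log2 fold change -0.25, SE 0.09, adjusted p = 0.11). TUBB2A and TUBB3 are uncertain as separate genes, since 60.4% of the 75-base windows of TUBB2A occur in other genes, chiefly TUBB2B, and 89.2% of those of TUBB3 do, chiefly the locus of its second identifier, which overlaps it on the same strand. TUBB6 shared none of its windows (0%), TUBA4A 3.02% and TUBB4B 5.37%. Annotated genes on the other strand cover 36.6% of the exon bases of TUBA1B, 18.1% of TUBA4A, 16% of TUBB, 20.3% of TUBB6 and 5.87% of TUBB4B, and fragments there cannot be told apart if strand was not used.

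**Figure D1:**
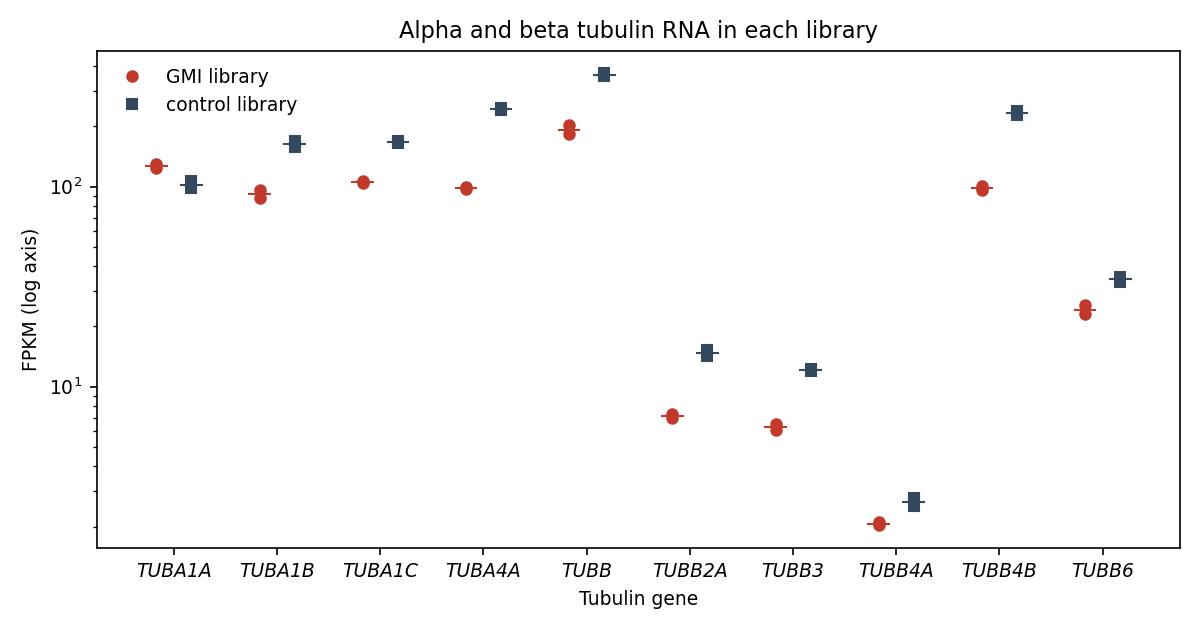
FPKM on a log axis of the 10 alpha and beta tubulin genes above the filter, with a circle for each GMI library, a square for each control library and a short line at each group mean. GMI libraries lie below the controls for 9 genes and above them for TUBA1A.

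Both GMI libraries were below both controls in 9 of the 10 tested alpha and beta tubulins, and 30.4% of all tested genes had that order. Among the 423 genes with a control mean of at least 100 FPKM, a bound set after the values were seen, TUBA4A and TUBB4B had the lowest and second lowest log2 fold changes. TUBB was at place 8, TUBA1B at 9 and TUBA1C at 14 of the 423, counted from the lowest. Within those abundant genes 8.75% were called lower and 14.7% higher. The bound was set on the controls alone, so genes that reached 100 FPKM only in GMI cells were left out. TUBA4A, TUBB4B and TUBA1B, with GMI means of 98.1, 98.3 and 91.8 FPKM, met it only through the controls. These places and shares therefore come from a one-sided choice and are descriptions only.

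The summed alpha and beta tubulin RNA was 766 and 741 FPKM in GMI cells, against 1334 and 1342 FPKM in controls. The sum in GMI cells was 56.3% of that in controls, a difference of -0.83 on the log2 scale. An exact two-sided permutation test gave p = 0.333, which is the smallest p that 2 libraries against 2 allow. The alpha sum was 423 and 422 FPKM in GMI cells, against 672 and 682 FPKM in controls, and the beta sum was 343 and 319 FPKM in GMI cells, against 661 and 660 FPKM in controls. The beta sum in GMI cells was 50.1% of control and the alpha sum 62.5%, with an exact permutation p = 0.333 for each. Without TUBA1A the alpha sum was 299 and 292 FPKM in GMI cells, against 574 and 575 FPKM in controls, or 51.4% of control. The ratio of alpha to beta RNA was 1.23 and 1.32 in GMI cells, against 1.02 and 1.03 in controls.

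Some markers of dividing cells were also lower in the GMI libraries. The 11 markers summed to 14.3 and 14.6 FPKM in GMI cells, against 19.6 and 21.1 FPKM in controls. Of the 5 that were tested, CDC20, CCNB2 and TOP2A fell, where 6.12% of all tested genes were called lower. That share is no fair measure for them. CDC20 (0.94 and 0.87 FPKM in GMI cells, 2.72 and 3.05 in controls) passed the filter only through the controls. So did TOP2A (0.55 and 0.48 in GMI cells, 1.11 and 1.11 in controls). CCNB2 had 0.88 and 1.08 FPKM in GMI cells, against 1.65 and 1.89 FPKM in controls. CCNB1 and AURKA, the most abundant of the tested markers, were not called. CCNB1 had 7.15 and 7.13 FPKM in GMI cells, against 7.68 and 8.75 FPKM in controls (adjusted p = 0.194). AURKA had 2.97 and 3.01 FPKM in GMI cells, against 3.21 and 3.18 FPKM in controls (adjusted p = 0.593). The remaining markers were below 1 FPKM in every library, and among them AURKB was the one higher in GMI cells, with 0.55 and 0.62 FPKM in GMI cells, against 0.48 and 0.45 FPKM in controls. The part of cell division in the difference of tubulin RNA was not tested.

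The share of each gene in the alpha and beta pools was compared next. TUBA1A made up 29.3% and 30.9% of the alpha RNA in GMI cells, against 14.6% and 15.6% in controls. TUBA4A made up 23.4% and 23.0% in GMI cells, against 36.8% and 35.4% in controls. TUBA1B and TUBA1C had shares between 20.8% and 25.3% in all 4 libraries. Among beta tubulins, TUBB made up 59.2% and 57.1% in GMI cells, against 54.1% and 55.8% in controls. TUBB4B made up 29.3% and 30.1% in GMI cells, against 35.9% and 34.7% in controls, while TUBB6 made up 6.71% and 7.98% in GMI cells, against 5.33% and 5.08% in controls. These shares are descriptions, because parts of a whole move together and 2 libraries a group allow no exact p under 0.333. They also rest on FPKM from which shared fragments may be missing to unequal degrees. Windows that occurred in other genes made up 27.5% of TUBA1A, 48.4% of TUBA1B and 17% of TUBA1C, against 3.02% of TUBA4A. The same limit holds for the ratio of alpha to beta RNA.

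**Figure D2:**
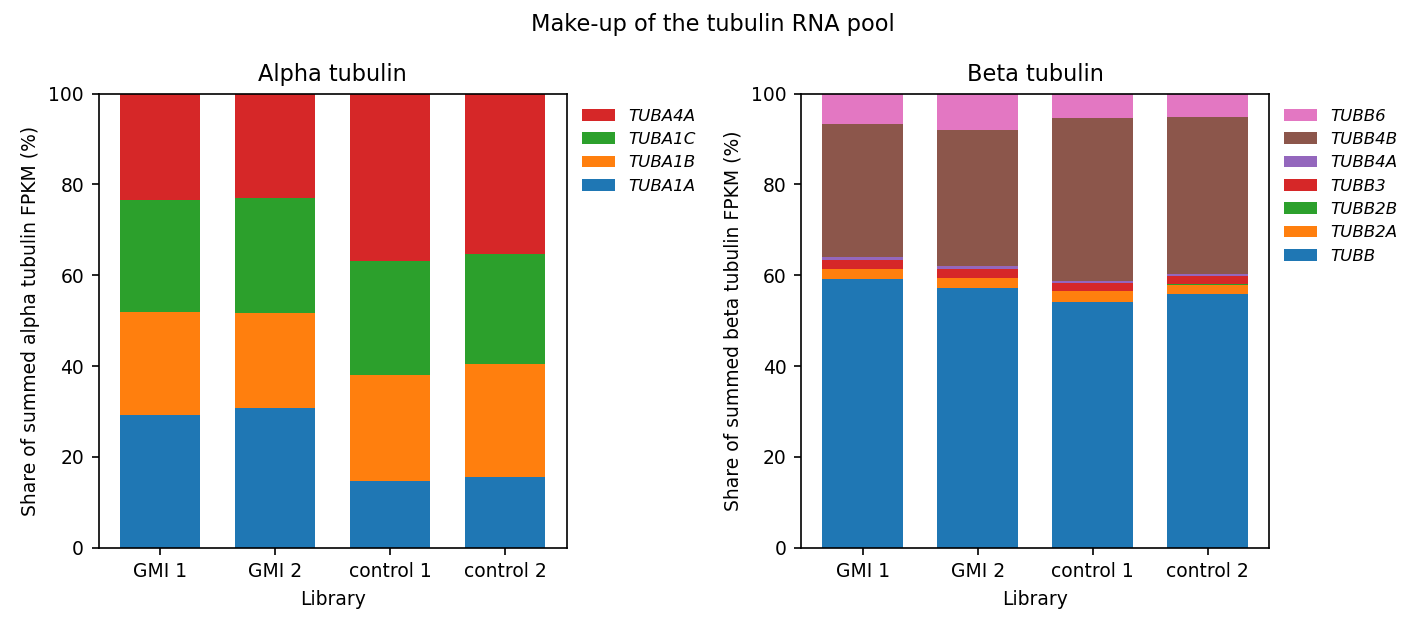
Stacked bars give the share of each gene in the summed FPKM of the alpha (left) and beta (right) tubulin members, in percent, for each of the 4 libraries. The TUBA1A share is 29.3% and 30.9% in the GMI libraries and 14.6% and 15.6% in the controls, and the TUBA4A share is smaller in the GMI libraries.

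The promoters of TUBA1A, which rose, and of TUBA4A and TUBB4B, which fell furthest, are shown so that the opposite ends of the tubulin changes can be compared. The sequences are RefSeq promoters on GRCh38.p14, from 250 bases before the annotated start to 50 after it, 5′ to 3′ on the strand of the gene, with CCAAT and its reverse complement ATTGG in capitals.
TUBA1A, chr12:49189031-49189330, minus strand: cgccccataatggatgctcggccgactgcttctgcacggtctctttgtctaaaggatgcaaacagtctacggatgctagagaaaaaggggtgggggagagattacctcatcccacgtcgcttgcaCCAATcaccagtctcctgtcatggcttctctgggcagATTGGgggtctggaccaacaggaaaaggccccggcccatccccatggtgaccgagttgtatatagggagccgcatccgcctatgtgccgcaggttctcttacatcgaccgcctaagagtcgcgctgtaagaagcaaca
TUBA4A, chr2:219253869-219254168, minus strand: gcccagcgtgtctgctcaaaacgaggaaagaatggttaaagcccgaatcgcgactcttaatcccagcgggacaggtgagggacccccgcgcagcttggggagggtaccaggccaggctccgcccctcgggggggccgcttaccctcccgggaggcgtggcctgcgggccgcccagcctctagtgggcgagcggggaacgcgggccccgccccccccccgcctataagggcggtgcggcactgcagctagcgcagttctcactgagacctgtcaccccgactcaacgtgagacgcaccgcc
TUBB4B, chr9:137241037-137241336, plus strand: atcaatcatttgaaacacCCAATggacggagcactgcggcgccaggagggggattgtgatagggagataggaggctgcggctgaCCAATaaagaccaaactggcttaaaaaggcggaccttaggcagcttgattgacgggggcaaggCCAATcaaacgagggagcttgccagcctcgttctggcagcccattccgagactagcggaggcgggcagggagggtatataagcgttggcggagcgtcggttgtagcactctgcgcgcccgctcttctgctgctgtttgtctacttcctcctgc
The TUBA1A window held 2 such matches and the TUBB4B window 3, and TUBA4A had none (0). Across 35116 promoter windows of the same length, 34.6% held at least 1 match on either strand. The GC box, searched as GGGCGG and CCGCCC, was found 4 times in TUBA4A and in neither of the other two windows, and 45% of all windows held it. Of 17 windows listed for the 11 alpha and beta tubulin members, several genes having more than 1 start, 10 held CCAAT or ATTGG and 11 held a GC box. These are matches of letters and not evidence of binding. TUBA1A, which rose, and TUBB4B, which fell, both held CCAAT or ATTGG.

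Within the gamma-tubulin complex, the ring from which filaments grow, the fall was seen in TUBG1. TUBG1 (ENSG00000131462) had 17.2 and 17.5 FPKM in GMI cells, against 32.2 and 31.1 FPKM in controls. The GMI mean was 54.6% of the control mean (log2 fold change -0.84, SE 0.06, adjusted p = 0.000951), with a wide gap between the groups. TUBG2, a further gamma tubulin gene that is not a member, was not called. It had 6.55 and 5.86 FPKM in GMI cells, against 6.28 and 6.78 FPKM in controls (log2 fold change -0.06, limma adjusted p = 0.646). The other 5 members of the class, TUBGCP2 to TUBGCP6, encode the ring proteins that hold gamma tubulin, and none of them was called. Their GMI means were between 76.6% and 106% of control. TUBGCP3, a core ring protein, came nearest to the threshold with 2.83 and 2.80 FPKM in GMI cells, against 3.76 and 3.59 FPKM in controls (log2 fold change -0.29, SE 0.08, adjusted p = 0.0574). TUBGCP5 had 5.04 and 4.10 FPKM in GMI cells, against 5.44 and 5.64 FPKM in controls (-0.24, adjusted p = 0.159). Both GMI libraries were below both controls in these genes, an order that 30.4% of all genes had.

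The folding cofactors TBCA to TBCE capture new tubulin monomers and join them into dimers, and ARL2 is the small GTPase that works with TBCD and TBCE. Of the 7 genes of this class 1 was called higher, ARL2, and 1 lower, TBCE, against 9.3% and 6.12% of all tested genes. Such small counts do not set the class apart. ARL2 had 77.4 and 78.6 FPKM in GMI cells, against 62.3 and 60.5 FPKM in controls (log2 fold change 0.34, SE 0.06, adjusted p = 0.0105). TBCE had 9.26 and 9.40 FPKM in GMI cells, against 11.5 and 11.3 FPKM in controls, a call close to the threshold (log2 fold change -0.26, SE 0.07, adjusted p = 0.0415). The groups did not overlap in either gene. Over all tested genes, both GMI libraries were above both controls in 29.8% and below both in 30.4%.

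The remaining 5 were not called, and their GMI means lay between 93.3% and 106% of control. TBCD, which binds beta tubulin, had 6.59 and 6.12 FPKM in GMI cells, against 6.61 and 7.02 FPKM in controls (-0.09, adjusted p = 0.485). TBCC, which stimulates GTP hydrolysis in the cofactor complex, had 8.72 and 7.99 FPKM in GMI cells, against 7.96 and 7.75 FPKM in controls (0.08, adjusted p = 0.524). Summed over the 5 TBC genes, RNA was 95.8 and 108 FPKM in GMI cells, against 103 and 101 FPKM in controls, and the groups overlapped (exact two-sided permutation p = 1.0). The tubulin and cofactor sums were not tested against each other.

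Of the 16 microtubule-binding proteins and enzymes 1 was called lower, STMN3, and 0 higher, against 6.12% and 9.3% of all tested genes. That count does not set the class apart from other genes. STMN3, a stathmin family protein that sequesters tubulin dimers and was described in neurons, had 3.68 and 3.21 FPKM in GMI cells, against 5.02 and 4.58 FPKM in controls (log2 fold change -0.38, SE 0.09, adjusted p = 0.0369). Its relative STMN1 had 2.47 and 3.11 FPKM in GMI cells, against 2.97 and 2.34 FPKM in controls, with overlapping groups (adjusted p = 0.817).

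GMI means of the 15 members not called were between 85.1% and 105% of control. Farthest from 0 among them were MAP1B and EML4, which both bind along the filament. MAP1B had 24.1 and 21.96 FPKM in GMI cells, against 24.7 and 28.8 FPKM in controls (-0.20, SE 0.09, adjusted p = 0.173), and EML4 had 4.30 and 4.05 FPKM in GMI cells, against 4.52 and 5.29 FPKM in controls (-0.19, SE 0.09, adjusted p = 0.219). The end-binding proteins MAPRE1 to MAPRE3, the plus-end proteins CLIP1, CLASP1 and CLASP2, the lattice-binding MAP4 and MAP1S, the severing enzymes KATNA1 and SPAST, the tubulin deacetylase HDAC6 and TTLL12, of the tubulin tyrosine ligase-like family, made up the rest. MAPRE1 was the most abundant of the class, with 56.5 and 66.9 FPKM in GMI cells, against 65.3 and 68.9 FPKM in controls.

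None of the 7 motor genes was called by limma (0), and 0 had an unadjusted p under 0.05. Over all genes tested 15.4% were called in either direction, and 3733 of 11598 had an unadjusted p under 0.05. Their GMI means lay between 88.8% and 99.3% of control. KIF5B, the heavy chain of conventional kinesin, had 13.1 and 15.0 FPKM in GMI cells, against 14.6 and 17.1 FPKM in controls (-0.16, SE 0.10, adjusted p = 0.313). DYNC1H1, the heavy chain of cytoplasmic dynein, had 35.8 and 29.8 FPKM in GMI cells, against 34.8 and 38.3 FPKM in controls (-0.15, SE 0.10, adjusted p = 0.329). In both genes the groups overlapped. DYNLL1, a dynein light chain and the most abundant member of the class, had 79.0 and 79.9 FPKM in GMI cells, against 82.3 and 77.8 FPKM in controls. The other 4, the kinesins KIF1B, KIF1C and KIF3A and the dynactin subunit DCTN1, had log2 fold changes between -0.14 and -0.02. KIF3A had the widest spread of them, with 1.71 and 2.86 FPKM in GMI cells, against 2.11 and 2.68 FPKM in controls.

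**Figure D3:**
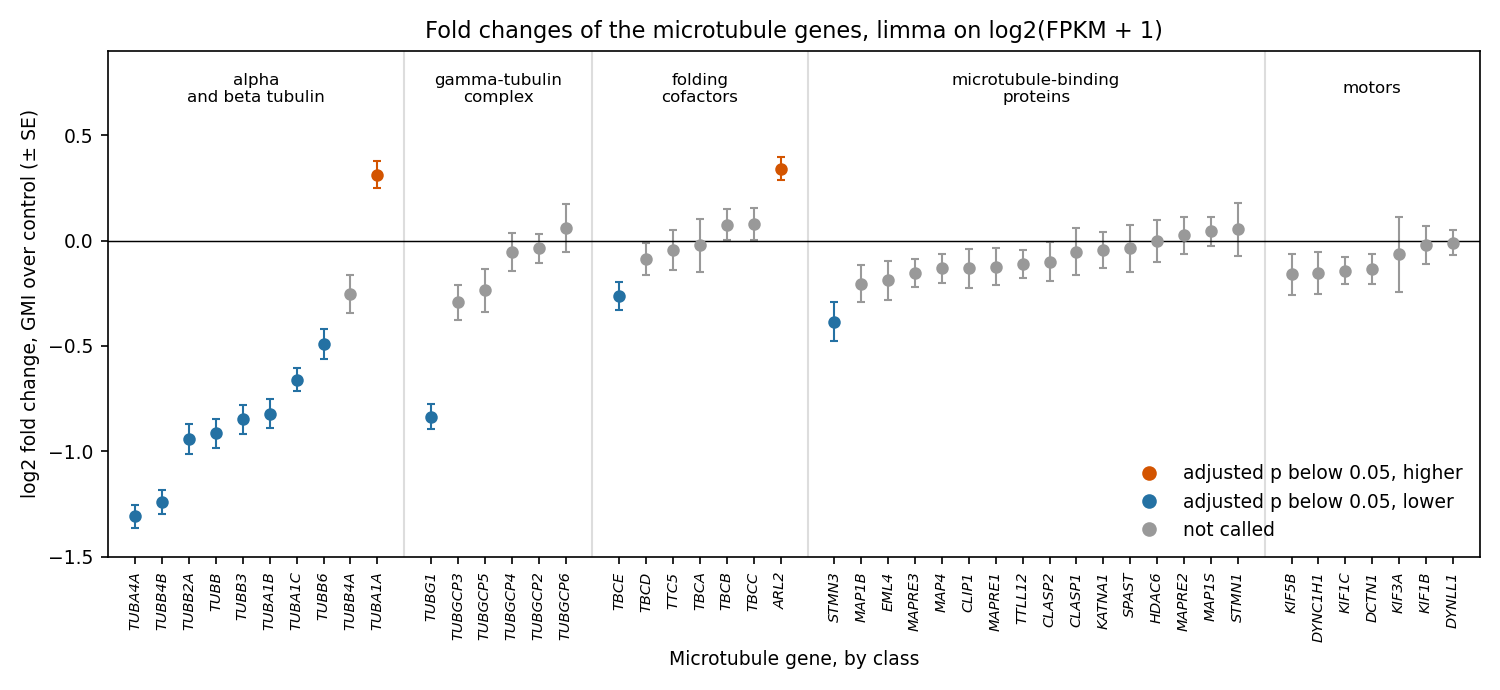
Log2 fold change, GMI over control, with its standard error for the 46 member rows tested, ordered within each class. Points are coloured by limma call, and the calls lie mainly among the tubulins: 8 lower and 1 higher of 10 alpha and beta tubulins, and 0 of 7 motors.

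The calls depended on single libraries, most of all on the controls. Without control replicate 1, 4 of the 13 called members passed (TUBA1B, TUBA4A, TUBB and TUBB4B), and without control replicate 2, 2 did (TUBA4A and TUBB4B). Without GMI replicate 2, TUBA1A (adjusted p = 0.0793), TBCE (0.0825) and STMN3 (0.115) missed the threshold, and TBCE also missed it without GMI replicate 1 (0.0846). With no filter on low values none of the 13 passed (0, with an adjusted p between 0.052 and 0.173).

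Beyond the members, 8 lists covering whole families of microtubule genes were examined, of which 225 of 226 symbols were found in the files. Of 101 tested genes that were not members, 12 were higher and 4 were lower, against 9.3% and 6.12% of all tested genes, and their median log2 fold change was -0.01. The divergent delta and epsilon tubulins, found mainly at centrioles, were not called. TUBD1 had 1.06 and 0.84 FPKM in GMI cells, against 0.81 and 1.15 FPKM in controls, and TUBE1 had 1.22 and 1.28 FPKM in GMI cells, against 1.26 and 1.30 FPKM in controls, and both pairs of groups overlapped. The other genes of the tubulin family were members or below the filter.

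Over all tested genes 9.3% were called higher and 6.12% lower. In the gamma-tubulin and augmin list 2 of 14 genes outside the members rose and 0 fell. They were MZT2B and MZT2A, near-identical small subunits of the gamma-tubulin ring. MZT2B had 43.7 and 47.8 FPKM in GMI cells, against 37.1 and 31.2 FPKM in controls (log2 fold change 0.42, adjusted p = 0.0305), and MZT2A had 12.4 and 13.4 FPKM in GMI cells, against 10.2 and 9.46 FPKM in controls (0.36, adjusted p = 0.0251). As close copies, the pair cannot be counted as separate observations.

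Among other microtubule-binding proteins 6 of 31 rose and 1 fell, against 9.3% and 6.12% of all tested genes. TPPP, a protein that promotes tubulin polymerisation, had 18.2 and 15.3 FPKM in GMI cells, against 10.7 and 10.9 FPKM in controls (log2 fold change 0.58, adjusted p = 0.00915). Its relative TPPP3 had 3.98 and 4.15 FPKM in GMI cells, against 2.77 and 2.31 FPKM in controls (0.52, adjusted p = 0.0165). DCLK1, a kinase of the doublecortin family, had 5.15 and 5.14 FPKM in GMI cells, against 3.18 and 3.30 FPKM in controls (0.54, adjusted p = 0.00726). In each of the 3 genes both GMI libraries were above both controls, but genes were named only if their groups did not overlap. Over all genes tested, 29.8% had that order. MTUS1, MAP7 and ARHGEF2 were the other genes that rose and TPX2, a spindle protein, was the gene that fell, with 2.70 and 2.88 FPKM in GMI cells, against 3.84 and 4.16 FPKM in controls, all 4 named after their values were seen.

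The counts of the next lists stand against 9.3% of all tested genes called higher and 6.12% lower. Of the other severing and modifying enzymes 1 of 12 rose and 0 fell. It was TTLL1, the catalytic part of a tubulin polyglutamylase, with 2 and 2.04 FPKM in GMI cells, against 1.27 and 1.06 FPKM in controls (0.48, adjusted p = 0.0257). Of 14 other transport kinesin genes 3 rose and 2 fell. KIF13A, a kinesin of endosome transport, had 2.99 and 2.95 FPKM in GMI cells, against 4.70 and 4.67 FPKM in controls (-0.52, adjusted p = 0.00847). KIF7, a kinesin of primary cilia, fell (-0.41, adjusted p = 0.0373), and KLC4, a kinesin light chain, rose (0.36, adjusted p = 0.0392), as did KIF13B and KIFC2, named after their values were seen. Of 23 other dynein, dynactin and adaptor genes 0 were called in either direction, against 15.4% of all tested genes. Members included, 14 genes of the 8 lists were higher and 15 lower with all libraries. When control replicate 2 was left out, 0 were higher and 2 lower, and when control replicate 1 was left out, 0 were higher and 4 lower. All of those still called were members, so 0 genes outside the members were called without either control.

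Only 3 of 16 mitotic kinesins were above the filter, and 1 fell, KIF23, named after its value was seen, with 0.72 and 0.80 FPKM in GMI cells, against 1.5 and 1.46 FPKM in controls. KIF23 passed the filter only through the controls, so it was tested only because it was high there.

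**Figure D4:**
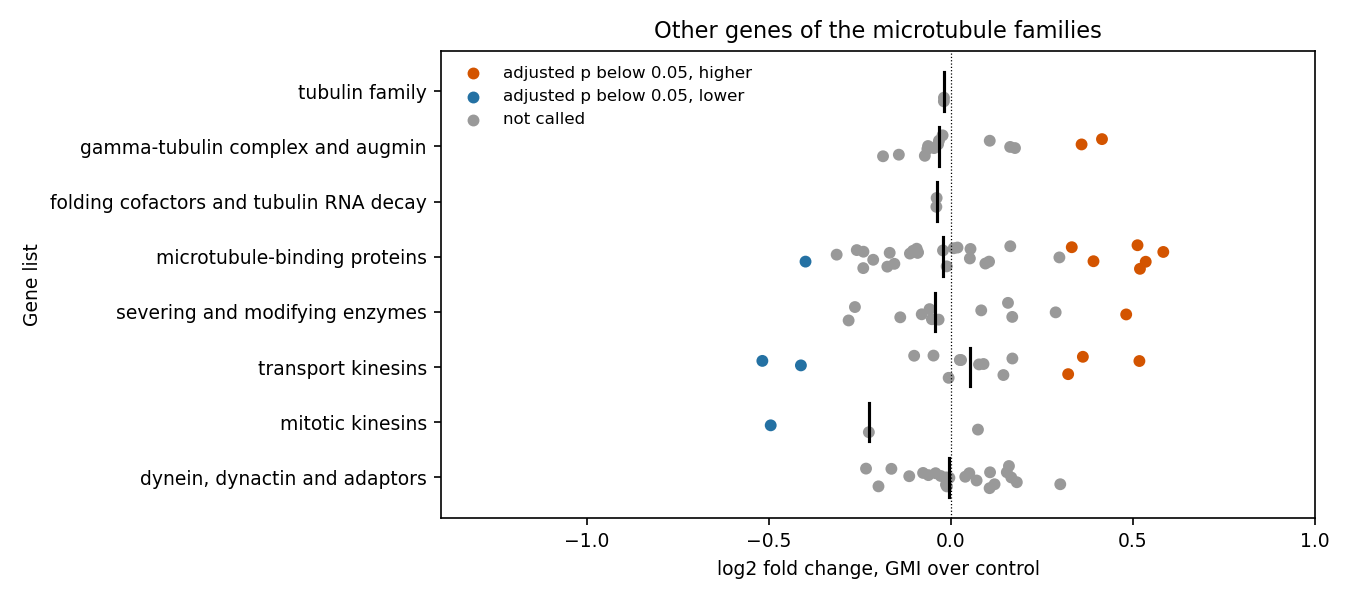
Log2 fold change, GMI over control, of the 101 tested genes of the 8 microtubule lists that are not among the 47, 1 point per gene coloured by limma call, with a black bar at the median of each list. List medians lie between -0.23 and 0.05, and 12 genes are called higher and 4 lower, against 9.3% and 6.12% of all tested genes.

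The libraries were alike in size. Fragment totals read from the steps of the FPKM values were 21860000 and 20880000 for the GMI libraries and 20560000 and 24090000 for the controls, so that 1 FPKM in a gene of 2 kb stands for about 41.1 to 48.2 fragments. CDKN2A, which is deleted in A549, was at 0 in all 4 libraries. Keratins 7, 8 and 18 and the enzymes ALDH1A1, AKR1B10 and AKR1C1 were each above 50 FPKM in every library, while CDH1 was at most 2.55 FPKM and the epithelial markers EPCAM and KRT19 were below 1 FPKM. In all of these abundant markers but KRT8 the groups did not overlap: KRT7 had 518 and 502 FPKM in GMI cells, against 1176 and 1118 FPKM in controls, ALDH1A1 had 1067 and 1091 FPKM in GMI cells, against 1848 and 1842 FPKM in controls, and AKR1C1 had 87.8 and 90.6 FPKM in GMI cells, against 64.0 and 56.3 FPKM in controls. Over all genes tested, both GMI libraries were below both controls in 30.4% and above both in 29.8%. PTPRC and CD3E of immune cells were at 0 in every library, CD14 had 4.61 and 3.61 FPKM in GMI cells, against 2.11 and 2.0 FPKM in controls, and summed endothelial and fibroblast markers were at most 0.07 and 1.31 FPKM.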

How the data were processed

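RNA of A549 cells was sequenced in 2 GMI and 2 control libraries. The authors deposited 1 file per library with FPKM values to 2 decimals. HTSeq 0.6.1 and HISAT2 2.0.1 are named, together with cutadapt 1.9.1, bcl2fastq 2.17.1.14 and the build GRCh37, per the submitters' processing notes. The annotation release, the strand setting and the gene lengths behind the values were not given in the sources used here. HTSeq assigns fragments to genes, so shared or overlapping sequence can lower or shift the values of close copies.

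Groups and replicate numbers came from the labels. Genes with at least 1 FPKM in at least 2 of the 4 libraries were tested (11598). The test was limma 3.58.1 (R 4.3.3), run on log2(FPKM + 1) without covariates and with empirical Bayes moderation that follows mean expression (4.69 prior and 2 residual degrees of freedom), with Benjamini-Hochberg adjustment over all genes tested and a threshold of 0.05. When the fit was tested on simulated data, the share of false calls lay above the nominal 0.05, so calls near the threshold are less certain than their adjusted p. Sums were compared by exact permutation. Fragment totals were those that made FPKM values of genes up to 200 nt and under 20 FPKM whole multiples of 1 fragment within 0.006 FPKM (95.8% to 96.8% of values).

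The members and lists were chosen with earlier results of these data known. All alpha and beta tubulins above the filter and every other called member are given in each library, with the 2 uncalled members farthest from 0 in each other class. Outside the members, up to 3 called genes per list are named. These had a mean of at least 2 FPKM in 1 group, groups that did not overlap and the largest absolute log2 fold changes. TTC5, TUBB2B, STMN1, CNOT11, MAPRE1, DYNLL1, KIF3A, TUBD1, TUBE1, TUBG2, MTUS1, MAP7, ARHGEF2, TPX2, KIF13B, KIFC2 and KIF23 were added after their values were seen. Coding starts came from GENCODE 29 transcripts and promoters from RefSeq, both on GRCh38, and no coordinates were converted. Alternatives tried were another pseudocount, other filters, each library left out, a replicate block, centred libraries and no trend.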

Additional observations from a re-analysis of the deposited data

How the results depend on the processing

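The settings changed which genes were called, not the sign of the fold change of the 14 named members. That sign is no sign of stability: filters, block and trend leave the fold change as it is, and with groups that do not overlap, leaving out 1 library cannot reverse it. Without a filter on low values 0 genes were called higher and 1 lower in the whole table of 26758 genes, and 0 and 0 members and 0 and 0 microtubule family genes, against 1079 and 710, 2 and 11, and 14 and 15 in the fit reported. With a mean of at least 5 FPKM, 9 family genes were called higher, where fewer genes were tested (6070). Without the mean-variance trend 1 member was called higher, TUBA1A missing the threshold (adjusted p = 0.0579). When each library was left out in turn, genes called higher ranged from 28 to 856 and lower from 17 to 513, members from 0 to 2 and from 2 to 10, and family genes from 0 to 7 and from 2 to 11; the lowest counts came without control replicate 2. Those fits assume that the lone library varies like the other group. The log2 difference of the summed alpha and beta tubulin FPKM ranged from -0.85 to -0.80 in them. The cause of these losses of calls was not tested.

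Replicate numbers are shared between the groups, but nothing in the labels says that they pair the libraries. Across genes the replicate differences of GMI and control correlated at -0.044. With the replicate number as a block, 1191 genes were called higher and 809 lower, and 2 and 10 members, TBCE missing the threshold (adjusted p = 0.0594). Changing the pseudocount to 0.1 or centring each library left 2 members called higher and 11 lower. Every call rests on 2 libraries per group. At the depth of these libraries 1 FPKM in a gene of 2 kb stands for 41.1 to 48.2 fragments, so genes near the filter carry the larger counting error.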
